A study of Saccharomyces cerevisiae with 33 samples.

Results

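Yeast cells build their fatty acids in the cytosol, and 10 genes of this route were followed over all chemostat groups of the study: *ACS2*, *ACC1*, *FAS1*, *FAS2*, *OLE1*, *ELO1*, *ELO2*, *ELO3*, *FAA1* and *FAA4*. They were chosen by function and symbol, from the probe table of the array, and not by their values. Each has 1 probe set, so that these 10 genes stand among 5449 genes of S. cerevisiae that were tested. The mean of each of the 10 lay above the background level of the arrays, a log2 signal of 5.47, under which 95% of the probe sets for genes of other organisms fall.

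Fatty acids are built from acetyl-CoA, which Acs2 makes from acetate. Acc1 carboxylates acetyl-CoA to malonyl-CoA, the committed step, and the fatty acid synthase, a complex of the β subunit Fas1 and the α subunit Fas2, extends the chain by repeated addition of malonyl units. Ole1, the desaturase of the endoplasmic reticulum, then introduces a double bond, Elo1 lengthens shorter acyl chains, and Elo2 and Elo3 build the very long chains that go into sphingolipids. Faa1 and Faa4 activate free long-chain fatty acids, taken up from outside or released inside the cell, to acyl-CoA. In yeast *ACC1*, *FAS1*, *FAS2* and *ACS2* carry the inositol-sensitive element UAS_INO in their promoters, on which the Ino2-Ino4 dimer activates and Opi1 represses transcription.

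All strains derive from the prototrophic **a**-type laboratory strain CEN.PK113-7D, and each deletion strain is 1 isolate in which loxP-Kan-loxP replaced the gene. The single deletions *opi1*Δ, *ino2*Δ and *ino4*Δ, the double deletion *ino2*Δ*ino4*Δ and the reference were grown in aerobic steady-state chemostats on minimal medium to which inositol and choline had been added for every group, the reference included. Under N-limitation these are 5 groups. Under C-limitation there are 6, because *opi1*Δ oscillated there and was sampled at maximum and at minimum CO2 production. Each group has 3 arrays, 15 N-limited and 18 C-limited, of the type Affymetrix Yeast Genome 2.0. The labels number the replicates but do not say whether each had its own culture, so p-values measure the spread between these arrays, which may be technical. Each array also reads a whole culture, so that fewer cells with a transcript and less transcript per cell cannot be told apart.

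Some arrays stood apart, and the values of the 10 genes that move with them are given with and without them. *OPI1* was at or below the background level in all *opi1*Δ arrays, as was *INO2* in all arrays labelled *ino2*Δ or *ino2*Δ*ino4*Δ and *INO4* in all arrays labelled *ino4*Δ. In 4 C-limited arrays the other *INO* gene went against the label. *INO4* was at 5.08 and 5.06, below background, in the libraries labelled *ino2*Δ replicates 2 and 3, and at 6.64, close to the reference arrays (6.92, 6.74 and 6.96), in the library labelled *ino2*Δ*ino4*Δ replicate 1. *INO2* was at 5.19 in the library labelled *ino4*Δ replicate 3, against 6.26, 6.19 and 6.25 in the reference. Another 5 arrays deviated from their groups in the same genes, among them *HAC1* and *PMA1*: replicates 1 and 3 of C-limited *opi1*Δ at minimum CO2, replicate 1 of the N-limited reference and replicates 1 and 3 of N-limited *ino2*Δ*ino4*Δ. Their *HAC1* signal was 6.31 to 7.04, against a median of 9.39 over all 33 arrays. Replicate 2 at minimum CO2 lacks this deviation, but over all genes it was the array least like its own group (mean r of 0.8928). Its closest array was C-limited *ino2*Δ*ino4*Δ replicate 1 (0.9457), while replicates 1 and 3 had 0.9915 with each other. Values from replicate 2 alone therefore rest on an array unlike the others of its group. The **a**-type markers *MFA1*, *MFA2*, *STE2*, *BAR1* and *STE6* read 6.68 to 12.38 in every array. Of the α-type genes, *MF(ALPHA)2* stayed at 5.05 to 5.43 and *STE3* at 5.26 to 6.30, while *MF(ALPHA)1* reached 11.49. In limma (adjusted p below 0.01) 1 of these 3 was higher than in the reference in each *opi1*Δ group. The shares of all genes were 17.5% at maximum CO2, 3.25% at minimum CO2 and 1.87% under N-limitation. In N-limited *ino2*Δ*ino4*Δ 1 was higher and 1 lower, beside 8.06% and 8.09% of all genes.

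Values are log2 signals, and a gene is said to have risen, fallen or changed where limma, fitted to all 33 arrays, gave a Benjamini-Hochberg adjusted p below 0.01 over the 5449 genes. Errors of log2 fold changes are standard errors. A log2 fold change of 1 is a 2-fold difference. Leaving out the 5 arrays with the shared deviation reduces C-limited *opi1*Δ at minimum CO2 and N-limited *ino2*Δ*ino4*Δ to 1 array each, replicate 2, and leaving out the 4 arrays against their labels reduces C-limited *ino2*Δ to replicate 1. The spread then comes from the other groups, the lone array is assumed to vary as they do, and such a p compares that array, not the strain, with the reference.

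With arrays grouped by label, *ACC1* and *FAS2* fell in all 3 C-limited strains without Ino2 or Ino4, and *FAS1* and *FAA1* in both single deletions there. In *ino2*Δ replicates 2 and 3 and *ino4*Δ replicate 3 of these groups the other *INO* gene was below background too. The methods' t-test gave 0 of the 10 genes in each of these 3 strains. In C-limited *opi1*Δ at maximum CO2 *ELO2* and *ELO3* rose and *FAA1* and *OLE1* fell. Each CO2 phase is 1 part of an oscillation, and no such phases were sampled for the reference. Where a phase is compared with the reference, effects of the deletion and of the phase therefore cannot be told apart. The paper set the maximum-CO2 sample aside for its higher respiratory quotient and let minimum CO2 stand for a high *INO* level under C-limitation. Of the 10 genes, 0 rose and 4 fell in C-limited *ino2*Δ (0.0918% of all genes rose and 0.734% fell), 1 rose and 4 fell in *ino4*Δ (6.64% and 6.74% of all genes) and 0 rose and 2 fell in *ino2*Δ*ino4*Δ (0.0734% and 0.496%). In C-limited *opi1*Δ 2 rose and 2 fell at maximum CO2 (17.5% and 13.7% of all genes) and 1 rose and 0 fell at minimum CO2 (3.25% and 4.48%). Between these phases 2 genes were higher and 4 lower at maximum than at minimum CO2, where 28.4% of all genes were higher and 17% lower. Under N-limitation 2 rose and 0 fell in *opi1*Δ (1.87% and 0.661% of all genes), and 0 rose and 5 fell in *ino2*Δ*ino4*Δ (8.06% and 8.09%). In N-limited *ino2*Δ and *ino4*Δ limma called 0 of the 10 genes, beside 0.606% and 0.551% of all genes called in either direction. At an unadjusted p below 0.05 there were 4 and 3, and the methods' t-test also gave 0 for each. In the N-limited against the C-limited reference 2 rose and 1 fell, with 14.7% and 8.61% of all genes.

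**Figure D1:**
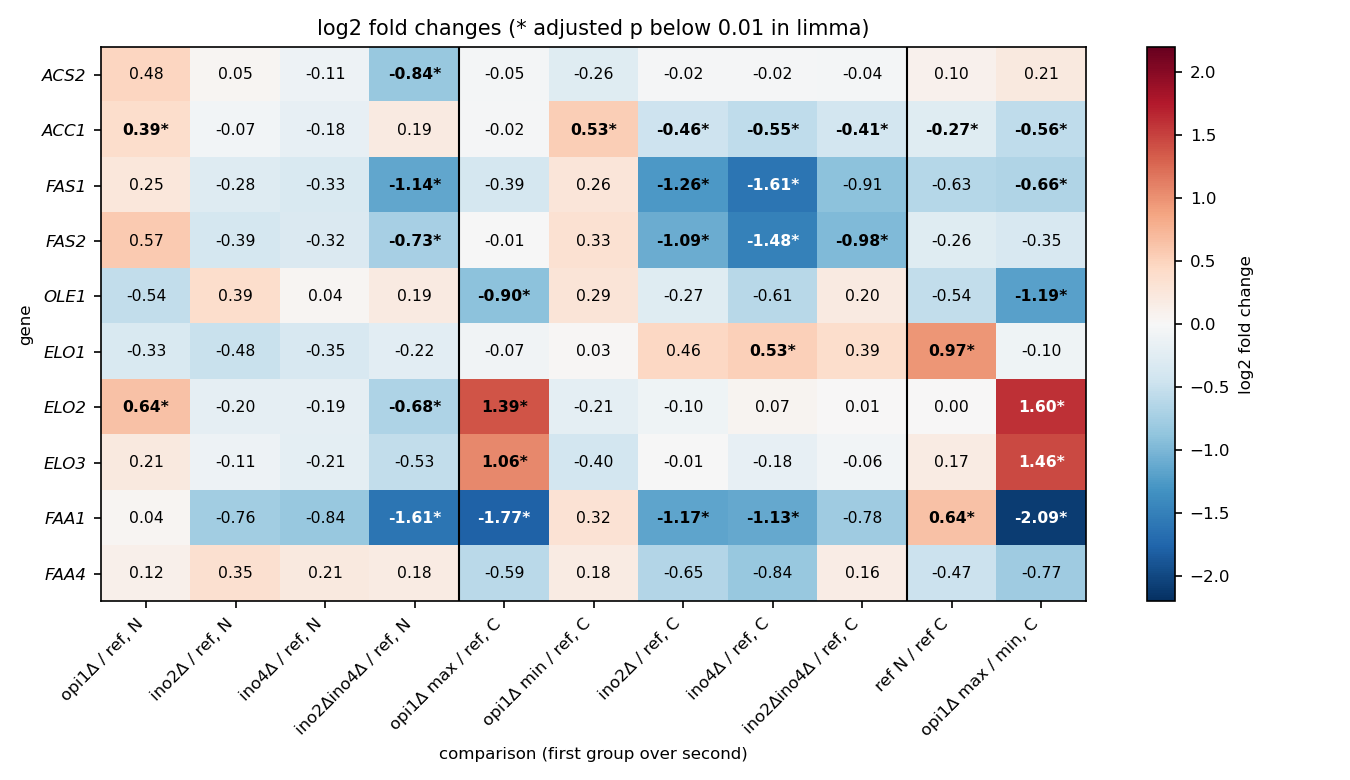
The colours and printed values give the log2 fold change of each gene (rows) in each comparison (columns, first group over second; N and C stand for N- and C-limitation, max and min for maximum and minimum CO2), and bold values with an asterisk have an adjusted p below 0.01 in limma. *FAS1*, *FAS2* and *ACC1* are blue in the C-limited *INO* deletions. The strongest red lies at *ELO2* and *ELO3* in *opi1*Δ at maximum CO2 (1.60 and 1.46 over minimum CO2, 1.39 and 1.06 over the reference). The deepest blue lies at *FAA1* in the same comparisons (-2.09 and -1.77).

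*FAS1* lies on chromosome XI (100671 to 106826, Watson strand) and *FAS2* on chromosome XVI (108652 to 114315, Watson strand); all positions are those of the R64 gene table. *FAS1* read 10.86, 10.04 and 10.05 in C-limited *ino2*Δ, 9.80, 9.67 and 10.45 in *ino4*Δ and 10.91, 10.59 and 10.51 in *ino2*Δ*ino4*Δ, against 11.56, 11.70 and 11.48 in the reference. *FAS2* read 9.92, 9.64 and 9.61 in *ino2*Δ, 9.21, 9.07 and 9.72 in *ino4*Δ and 9.91, 9.85 and 9.74 in *ino2*Δ*ino4*Δ, against 10.83, 10.87 and 10.74 in the reference. For both genes no array of a deletion strain reached any of the reference. This held for 12.6% of all genes in *ino2*Δ, 18% in *ino4*Δ and 11.6% in *ino2*Δ*ino4*Δ. Within *ino2*Δ, replicate 1, the array with the *INO* levels of its label, lay above both others, and within *ino4*Δ the array against its label was the highest. *FAS1* fell in both single deletions, with log2 fold changes of -1.26 ± 0.20 for *ino2*Δ and -1.61 ± 0.20 for *ino4*Δ (adjusted p = 2.9e-04 and 4.9e-06). Its value of -0.91 ± 0.20 in the double deletion missed the threshold (adjusted p = 0.0147). *FAS2* fell in all 3 strains, with -1.09 ± 0.16 for *ino2*Δ, -1.48 ± 0.16 for *ino4*Δ and -0.98 ± 0.16 for the double deletion (adjusted p = 1.0e-04, 6.7e-07 and 5.9e-04).

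The 4 arrays with *INO* levels against their labels bear on these values. Without them *ino2*Δ has 1 array, and *FAS1* and *FAS2* no longer passed there (log2 fold changes of -0.72 and -0.90, adjusted p = 0.1543 and 0.0433). In *ino4*Δ without its replicate 3 the values lay further below 0, at -1.85 for *FAS1* and -1.67 for *FAS2* (adjusted p = 4.4e-09 and 5.0e-08). In *ino2*Δ*ino4*Δ without replicate 1 *FAS1* passed too (-1.03, adjusted p = 8.3e-05), and *FAS2* gave -1.02 (adjusted p = 2.0e-04).

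**Figure D2:**
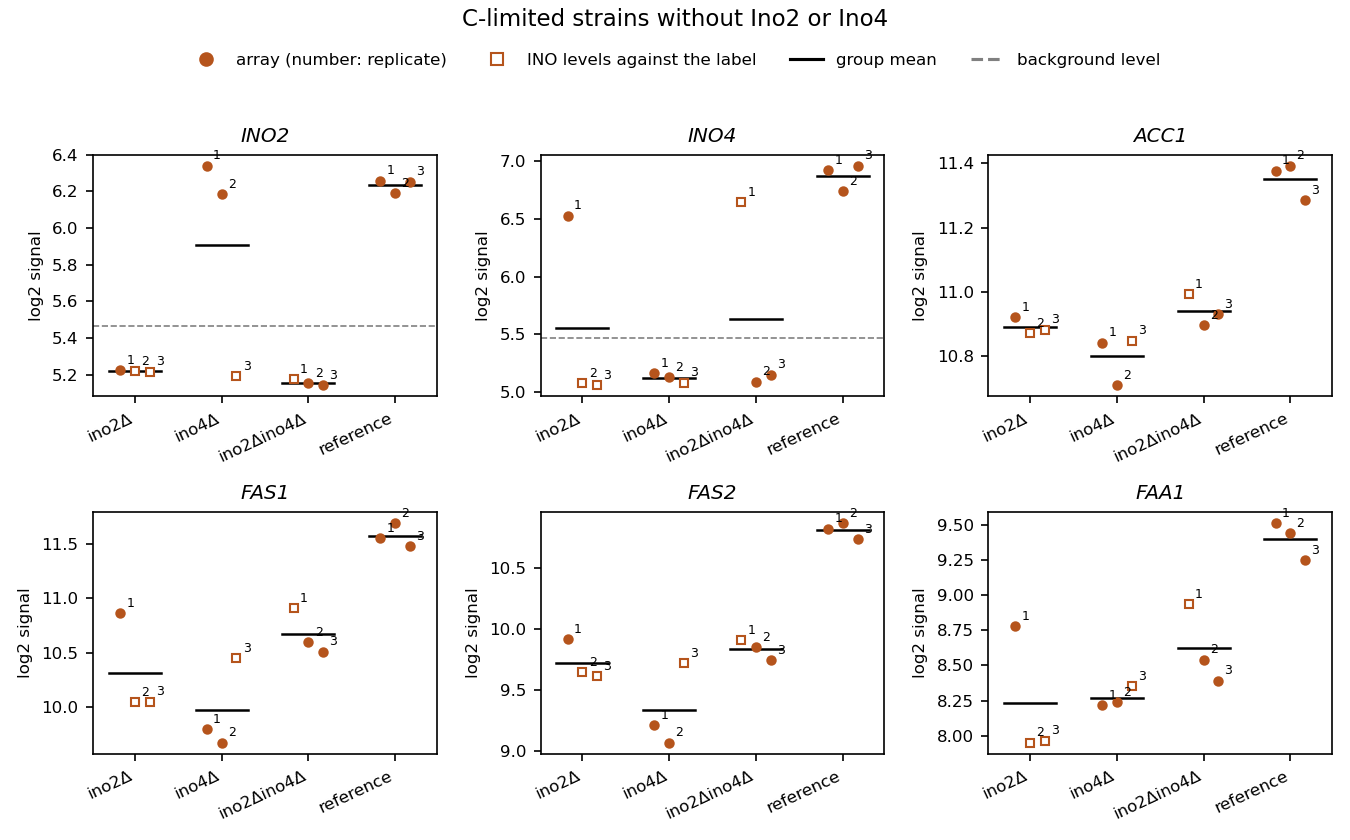
The log2 signal of *INO2*, *INO4*, *ACC1*, *FAS1*, *FAS2* and *FAA1* is plotted for each C-limited array of the *INO* deletion strains and the reference, with the replicate number beside each point, open squares for the 4 arrays whose *INO* levels go against the label, bars for group means and a dashed line at the background level of 5.47. The single array of *ino2*Δ with *INO4* above background has a *FAS1* signal of 10.86, against 10.04 and 10.05 in the other two.

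Under N-limitation the synthase genes fell in the double deletion. *FAS1* read 9.76, 10.16 and 9.50 in N-limited *ino2*Δ*ino4*Δ, against 10.86, 10.94 and 11.06 in the reference, and fell by 1.14 ± 0.20 (adjusted p = 8.7e-05). *FAS2* read 9.89, 9.88 and 9.68, against 10.16, 10.69 and 10.81, and fell by 0.73 ± 0.16 (adjusted p = 0.0010). All double deletion arrays lay below the reference for both genes, as they did for 11.6% of all genes. Reference replicate 1, an array with the shared deviation, lay closest to the double deletion. Without the 5 arrays with that deviation the 1 double deletion array left gave -0.84 for *FAS1* (adjusted p = 0.0260) and -0.87 for *FAS2* (adjusted p = 8.2e-04) against 2 reference arrays. Without reference replicate 3 alone *FAS2* missed it (-0.61, adjusted p = 0.0131). Each single deletion was tight, with *FAS1* at 10.66 to 10.70 in *ino2*Δ and 10.60 to 10.65 in *ino4*Δ. Their log2 fold changes against the reference, -0.28 ± 0.20 and -0.33 ± 0.20 for *FAS1* and -0.39 ± 0.16 and -0.32 ± 0.16 for *FAS2*, did not pass (adjusted p = 0.2988 to 0.5657).

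In *opi1*Δ, where the repressor of these genes is missing, neither synthase gene passed against the reference of its limitation. *FAS1* read 11.19, 11.18 and 11.24 in N-limited *opi1*Δ, against 10.86, 10.94 and 11.06 in the reference (0.25 ± 0.20, adjusted p = 0.5569). *FAS2* read 11.05, 11.19 and 11.12, against 10.16, 10.69 and 10.81 (0.57 ± 0.16, adjusted p = 0.0377). All arrays of *opi1*Δ lay above all of the reference for both genes, as they did for 8.24% of all genes. At minimum CO2 under C-limitation *FAS1* read 11.66, 12.23 and 11.63, against 11.56, 11.70 and 11.48 in the reference (0.26 ± 0.20, adjusted p = 0.3384), and *FAS2* read 10.98, 11.55 and 10.91, against 10.83, 10.87 and 10.74 (0.33 ± 0.16, adjusted p = 0.1232). Replicate 2, the array without the shared deviation but least like its own group, was the highest for both, and alone it gave 0.74 for *FAS2*. At maximum CO2 *FAS1* read 11.21, 11.22 and 11.13 and was lower than at minimum CO2 by a log2 fold change of -0.66 ± 0.20 (adjusted p = 0.0064). This call was lost without any 1 of the maximum-CO2 replicates (adjusted p = 0.0151 to 0.0229) or without minimum-CO2 replicate 2 (-0.46, adjusted p = 0.0573), and the value was -1.05 with that replicate as the only array of its group (adjusted p = 0.0011). *FAS2* differed there by -0.35 ± 0.16 (adjusted p = 0.0637), or by -0.75 with that array alone (adjusted p = 3.6e-04).

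*ACC1*, on chromosome XIV (654673 to 661374, Crick strand), had the tightest replicates of the 10 genes, with a median SD of 0.04 over the groups. It read 11.89 in all 3 arrays at minimum CO2, against 11.38, 11.39 and 11.29 in the C-limited reference, and rose by 0.53 ± 0.07 (adjusted p = 4.6e-06). The 1 array without the shared deviation, set alone against the reference, gave 0.54 (adjusted p = 1.0e-04). At maximum CO2 it read 11.24, 11.41 and 11.34, overlapping the reference (-0.02 ± 0.07), and was lower than at minimum CO2 by -0.56 ± 0.07 (adjusted p = 1.5e-07). In N-limited *opi1*Δ *ACC1* read 11.47, 11.47 and 11.45, against 11.08, 11.06 and 11.09 in the reference, and rose by 0.39 ± 0.07 (adjusted p = 3.4e-04). All arrays of N-limited *opi1*Δ lay above the reference, as for 8.24% of all genes.

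In the C-limited *INO* deletions *ACC1* read 10.92, 10.87 and 10.88 in *ino2*Δ, 10.84, 10.71 and 10.85 in *ino4*Δ and 10.99, 10.90 and 10.93 in *ino2*Δ*ino4*Δ, all below the reference, as for 12.6%, 18% and 11.6% of all genes. It fell in all 3 strains, with -0.46 ± 0.07 for *ino2*Δ, -0.55 ± 0.07 for *ino4*Δ and -0.41 ± 0.07 for the double deletion (adjusted p = 9.2e-05, 3.4e-06 and 5.9e-04). Without the 4 arrays against their labels the values were -0.58 for *ino4*Δ and -0.44 for the double deletion, both past the threshold, while the 1 array left of *ino2*Δ gave -0.43 (adjusted p = 0.0406). With quantile normalization the calls in *ino2*Δ and in the double deletion were lost (adjusted p = 0.0114 and 0.0147). Under N-limitation the double deletion stood on the other side of its reference, where *ACC1* read 11.28, 11.22 and 11.30, above every reference array (0.19 ± 0.07, adjusted p = 0.0362, or 0.27 and 0.0078 with quantile normalization). All arrays lay above the reference there for 14.8% of all genes.

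*ACS2*, on chromosome XII (445524 to 447575, Crick strand), had log2 fold changes of -0.26 to -0.02 against the reference in the 5 C-limited mutant groups, none of which passed. The -0.26 is that of *opi1*Δ at minimum CO2, where the value was -0.47 without replicate 2 and 0.17 with replicate 2 alone (adjusted p = 0.1200 and 0.1386). In N-limited *ino2*Δ*ino4*Δ it read 8.80, 9.97 and 8.51, against 9.41, 10.09 and 10.30 in the reference. The groups overlap, and the arrays with the shared deviation are the low ones in both. The fall by 0.84 ± 0.23 (adjusted p = 0.0091) was -0.22 without these arrays, with 1 array of the double deletion left (adjusted p = 0.1115), and the call was also lost without any 1 of reference replicates 2 and 3 (-0.76 and -0.65, adjusted p = 0.0445 and 0.0750) and double deletion replicates 1 and 3 (-0.69 and -0.54, adjusted p = 0.0637 and 0.1053). Without double deletion replicate 2 it was -1.27. N-limited *opi1*Δ read 10.41, 10.41 and 10.42, the highest group for this gene, and did not pass against the reference (0.48 ± 0.23, adjusted p = 0.3127), with 0.22 without reference replicate 1. Without the 5 deviating arrays 2 more changes of *ACS2* passed, a fall in N-limited *ino4*Δ (-0.37, adjusted p = 0.0058) and a rise by 0.36 in the N-limited against the C-limited reference (adjusted p = 3.7e-04).

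*OLE1*, on chromosome VII (398628 to 400160, Watson strand), read 10.35, 10.28 and 10.61 in C-limited *opi1*Δ at maximum CO2 and 11.42, 12.02 and 11.37 at minimum CO2, against 11.38, 11.31 and 11.25 in the reference. The maximum-CO2 arrays lie below all others of these groups. They lay below the reference for 28.9% of all genes and below minimum CO2 for 21.9%. *OLE1* fell by 0.90 ± 0.19 at maximum CO2 against the reference (adjusted p = 3.3e-04), and between the phases it differed by -1.19 ± 0.19 (adjusted p = 6.8e-06), or -1.60 with minimum-CO2 replicate 2 as the only array of its group (adjusted p = 1.2e-05). N-limited *opi1*Δ was the lowest group for *OLE1*, at 10.15, 10.46 and 10.08, against 10.91, 10.46 and 10.95 in the reference, but this did not pass (-0.54 ± 0.19, adjusted p = 0.1105). In C-limited *ino4*Δ the arrays were split, at 10.44, 10.32 and 11.36, with the array against its label the highest. There the log2 fold change was -0.61 ± 0.19 (adjusted p = 0.0178), and without replicate 3 and the other mismatched arrays *OLE1* fell by 0.93 (adjusted p = 7.7e-05).

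The regulators of *OLE1* known in this yeast were listed beside it: the membrane-bound activators *MGA2* and *SPT23*, the ubiquitin ligase *RSP5* that sets them free and *UBX2*. At maximum CO2, 1 of these 4 fell against the reference (*UBX2*, by 0.83 ± 0.19, adjusted p = 8.9e-04), and none rose, beside 13.7% and 17.5% of all genes. Between the phases *MGA2* and *SPT23* were lower at maximum CO2 by -0.48 ± 0.12 and -0.27 ± 0.06 (adjusted p = 0.0017 and 6.7e-04). *MGA2* read 7.23, 7.93 and 7.42 at minimum CO2, and its value was -0.28 without replicate 2 (adjusted p = 0.0227) and -0.89 against replicate 2 alone. In N-limited *ino2*Δ*ino4*Δ, where *OLE1* did not pass (0.19 ± 0.19), *MGA2* rose by 0.94 ± 0.12 and *SPT23* fell by 0.57 ± 0.06 (adjusted p = 1.9e-06 and 1.0e-07).

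*ELO2* (*FEN1*, chromosome III, 190592 to 191635, Watson strand) and *ELO3* (*SUR4*, chromosome XII, 867354 to 868391, Watson strand) moved together. *ELO2* read 9.73, 9.65 and 9.67 in C-limited *opi1*Δ at maximum CO2 and 8.24, 7.75 and 8.25 at minimum CO2, against 8.28, 8.25 and 8.35 in the reference. *ELO3* read 10.24, 10.26 and 10.23 at maximum and 9.13, 8.09 and 9.15 at minimum CO2, against 9.22, 9.13 and 9.21. The maximum-CO2 arrays of both genes are the highest of all 33. They lay above the reference for 44.2% of all genes and above minimum CO2 for 38.1%. *ELO2* rose by 1.39 ± 0.14 and *ELO3* by 1.06 ± 0.17 over the reference (adjusted p = 2.1e-08 and 2.1e-05), and over minimum CO2 they were higher by 1.60 ± 0.14 and 1.46 ± 0.17 (adjusted p = 1.5e-09 and 1.4e-07). At minimum CO2 the arrays disagree: replicate 2 lay well below replicates 1 and 3, which carry the shared deviation. Neither gene passed there with 3 arrays (-0.21 ± 0.14 and -0.40 ± 0.17, adjusted p = 0.2694 and 0.0948), while replicate 2 alone gave -0.54 for *ELO2* and -1.10 for *ELO3* against the reference, with the spread of the other groups (adjusted p = 0.0027 and 6.9e-08).

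Under N-limitation *ELO2* read 9.03, 8.75 and 9.02 in *opi1*Δ, against 8.15, 8.31 and 8.43 in the reference, and rose by 0.64 ± 0.14 (adjusted p = 0.0058). This call was lost without any 1 of reference replicates 1 and 2 or *opi1*Δ replicates 1 and 3 (0.56 to 0.65, adjusted p = 0.0181 to 0.0488). It stood without the 5 arrays with the shared deviation (0.56, adjusted p = 0.0012). In N-limited *ino2*Δ*ino4*Δ *ELO2* read 7.23, 7.92 and 7.71, below every reference array, as for 11.6% of all genes, and fell by 0.68 ± 0.14 (adjusted p = 7.6e-04). Without replicate 1 of the double deletion the value was -0.48 (adjusted p = 0.0120), and without the 5 arrays, with 1 of the double deletion left, it was -0.45 (adjusted p = 0.0251). *ELO3* did not pass in either strain (0.21 ± 0.17 in *opi1*Δ and -0.53 ± 0.17 in the double deletion, adjusted p = 0.5795 and 0.0234).

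*ELO1*, on chromosome X (67850 to 68782, Crick strand), differed between the limitations in the reference strain. It read 9.01, 9.08 and 9.27 in the N-limited reference, against 8.11, 8.12 and 8.20 in the C-limited one, and rose by 0.97 ± 0.13 (adjusted p = 1.6e-06), a change that stood without reference replicate 1 and the other deviating arrays (1.03). In C-limited *ino4*Δ it read 8.66, 8.82 and 8.55, above all reference arrays, as for 24.4% of all genes, and rose by 0.53 ± 0.13 (adjusted p = 0.0043). The adjusted p reached 0.0187 and 0.0207 without reference replicates 2 and 1 and 0.0431 and 0.0226 without *ino4*Δ replicates 2 and 1, and it was 2.2e-04 without the mismatched arrays. In C-limited *ino2*Δ *ELO1* read 8.27, 8.72 and 8.82 (0.46 ± 0.13, adjusted p = 0.0595). The highest were the 2 arrays against their label, and without replicate 1 the change passed (0.63, adjusted p = 0.0014). In the N-limited *INO* deletions the values against the reference ran the other way, from -0.48 ± 0.13 in *ino2*Δ to -0.22 ± 0.13 in *ino2*Δ*ino4*Δ, and none passed.

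The 3 genes for the other steps of the elongation cycle are *IFA38*, a keto reductase, *PHS1*, a dehydratase, and *TSC13*, an enoyl reductase. In N-limited *ino2*Δ*ino4*Δ 2 of the 3 fell, beside 8.09% of all genes, *TSC13* with -0.91 ± 0.23 and *IFA38* with -0.87 ± 0.09 (adjusted p = 0.0045 and 5.6e-08). *TSC13* read 7.81, 8.89 and 7.51, against 8.56, 9.09 and 9.27 in the reference, and the low arrays of both groups are those with the shared deviation. Without these its value was -0.29 (adjusted p = 0.1279), and the call was also lost without any 1 of reference replicates 2 and 3 or double deletion replicates 1 and 3 (-0.85 to -0.63, adjusted p = 0.0228 to 0.0568). *TSC13* was higher at maximum than at minimum CO2 by 1.02 ± 0.23 (adjusted p = 5.5e-04), and by 0.54 than minimum-CO2 replicate 2 alone, the array without that deviation. At maximum CO2 against the reference, where *ELO2* and *ELO3* rose, the values of *IFA38*, *PHS1* and *TSC13* were 0.17 ± 0.09, 0.31 ± 0.24 and 0.28 ± 0.23, and did not pass (adjusted p = 0.1375 to 0.3504). *IFA38* rose in the N-limited reference by 0.95 ± 0.09 (adjusted p = 5.6e-09) and in C-limited *ino4*Δ by 0.33 ± 0.09 (adjusted p = 0.0085), 2 comparisons in which *ELO1* rose too. The call in *ino4*Δ was lost without any 1 of replicates 1 and 2 of either group (0.27 to 0.31, adjusted p = 0.0390 to 0.0628).

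*FAA1*, on chromosome XV (909343 to 911445, Watson strand), had the widest range of the 10 genes, 2.45 between the means of its highest and lowest groups. It read 7.58, 7.58 and 7.72 in C-limited *opi1*Δ at maximum CO2 and 9.52, 10.15 and 9.48 at minimum CO2, against 9.51, 9.44 and 9.25 in the reference. At maximum CO2 it fell by 1.77 ± 0.18 against the reference (adjusted p = 1.5e-08) and was lower than at minimum CO2 by -2.09 ± 0.18 (adjusted p = 8.1e-10). The minimum-CO2 group overlapped the reference (0.32 ± 0.18, adjusted p = 0.1881), and replicate 2 alone gave 0.75, with the spread of the other groups (adjusted p = 0.0096).

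*FAA1* was also low without Ino2 or Ino4. Under C-limitation it read 8.78, 7.95 and 7.97 in *ino2*Δ, 8.22, 8.24 and 8.35 in *ino4*Δ and 8.94, 8.54 and 8.39 in *ino2*Δ*ino4*Δ, all below the reference, as for 12.6%, 18% and 11.6% of all genes. It fell in *ino2*Δ and *ino4*Δ, with -1.17 ± 0.18 and -1.13 ± 0.18 (adjusted p = 1.9e-04 and 1.2e-04), and its -0.78 ± 0.18 in the double deletion missed the threshold (adjusted p = 0.0215). Without the mismatched arrays it was -0.62 in *ino2*Δ, with 1 array and no call (adjusted p = 0.3358), and it fell in *ino4*Δ and the double deletion, with -1.17 and -0.93 (adjusted p = 2.6e-06 and 2.4e-04). Under N-limitation it read 8.66, 8.18 and 8.47 in *ino2*Δ*ino4*Δ, against 10.08, 9.97 and 10.07 in the reference, and fell by 1.61 ± 0.18 (adjusted p = 1.5e-07). Without the 5 deviating arrays the 1 double deletion array left gave -1.84 against 2 reference arrays (adjusted p = 6.7e-06). In N-limited *ino2*Δ (9.28, 9.25 and 9.31) and *ino4*Δ (9.33, 9.08 and 9.18) every array lay below the reference, but -0.76 ± 0.18 and -0.84 ± 0.18 missed the threshold (adjusted p = 0.0273 and 0.0114). Every array lay below the reference for 20.1% of all genes in N-limited *ino2*Δ and for 14.5% in *ino4*Δ. N-limited *opi1*Δ read 10.04, 10.10 and 10.09, overlapping the reference (0.04 ± 0.18).

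*FAA4*, on chromosome XIII (759807 to 761891, Watson strand), was called by limma in 0 of the 19 comparisons, with an unadjusted p below 0.05 in 6. The methods' t-test passed it once, at maximum CO2 (9.16, 9.15 and 9.29, against 9.89, 9.84 and 9.64 in the reference), where limma gave -0.59 ± 0.31 (adjusted p = 0.1304) and the t-test an adjusted p of 0.0065. Its arrays ran from 8.50 to 10.86, and the widest SD of any group was 0.77, at minimum CO2 (9.45, 10.86 and 9.62). Against minimum-CO2 replicate 2 alone the maximum-CO2 arrays gave -1.66 (adjusted p = 5.7e-04). In C-limited *ino4*Δ it read 8.52, 8.50 and 9.84, against the same reference arrays (-0.84 ± 0.31, adjusted p = 0.0499), and without replicate 3 and the other mismatched arrays it fell by 1.28 (adjusted p = 5.5e-04). In C-limited *ino2*Δ the arrays against their label, 8.81 and 8.77, were the low ones, and replicate 1 read 9.83, within the reference range.

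**Figure D3:**
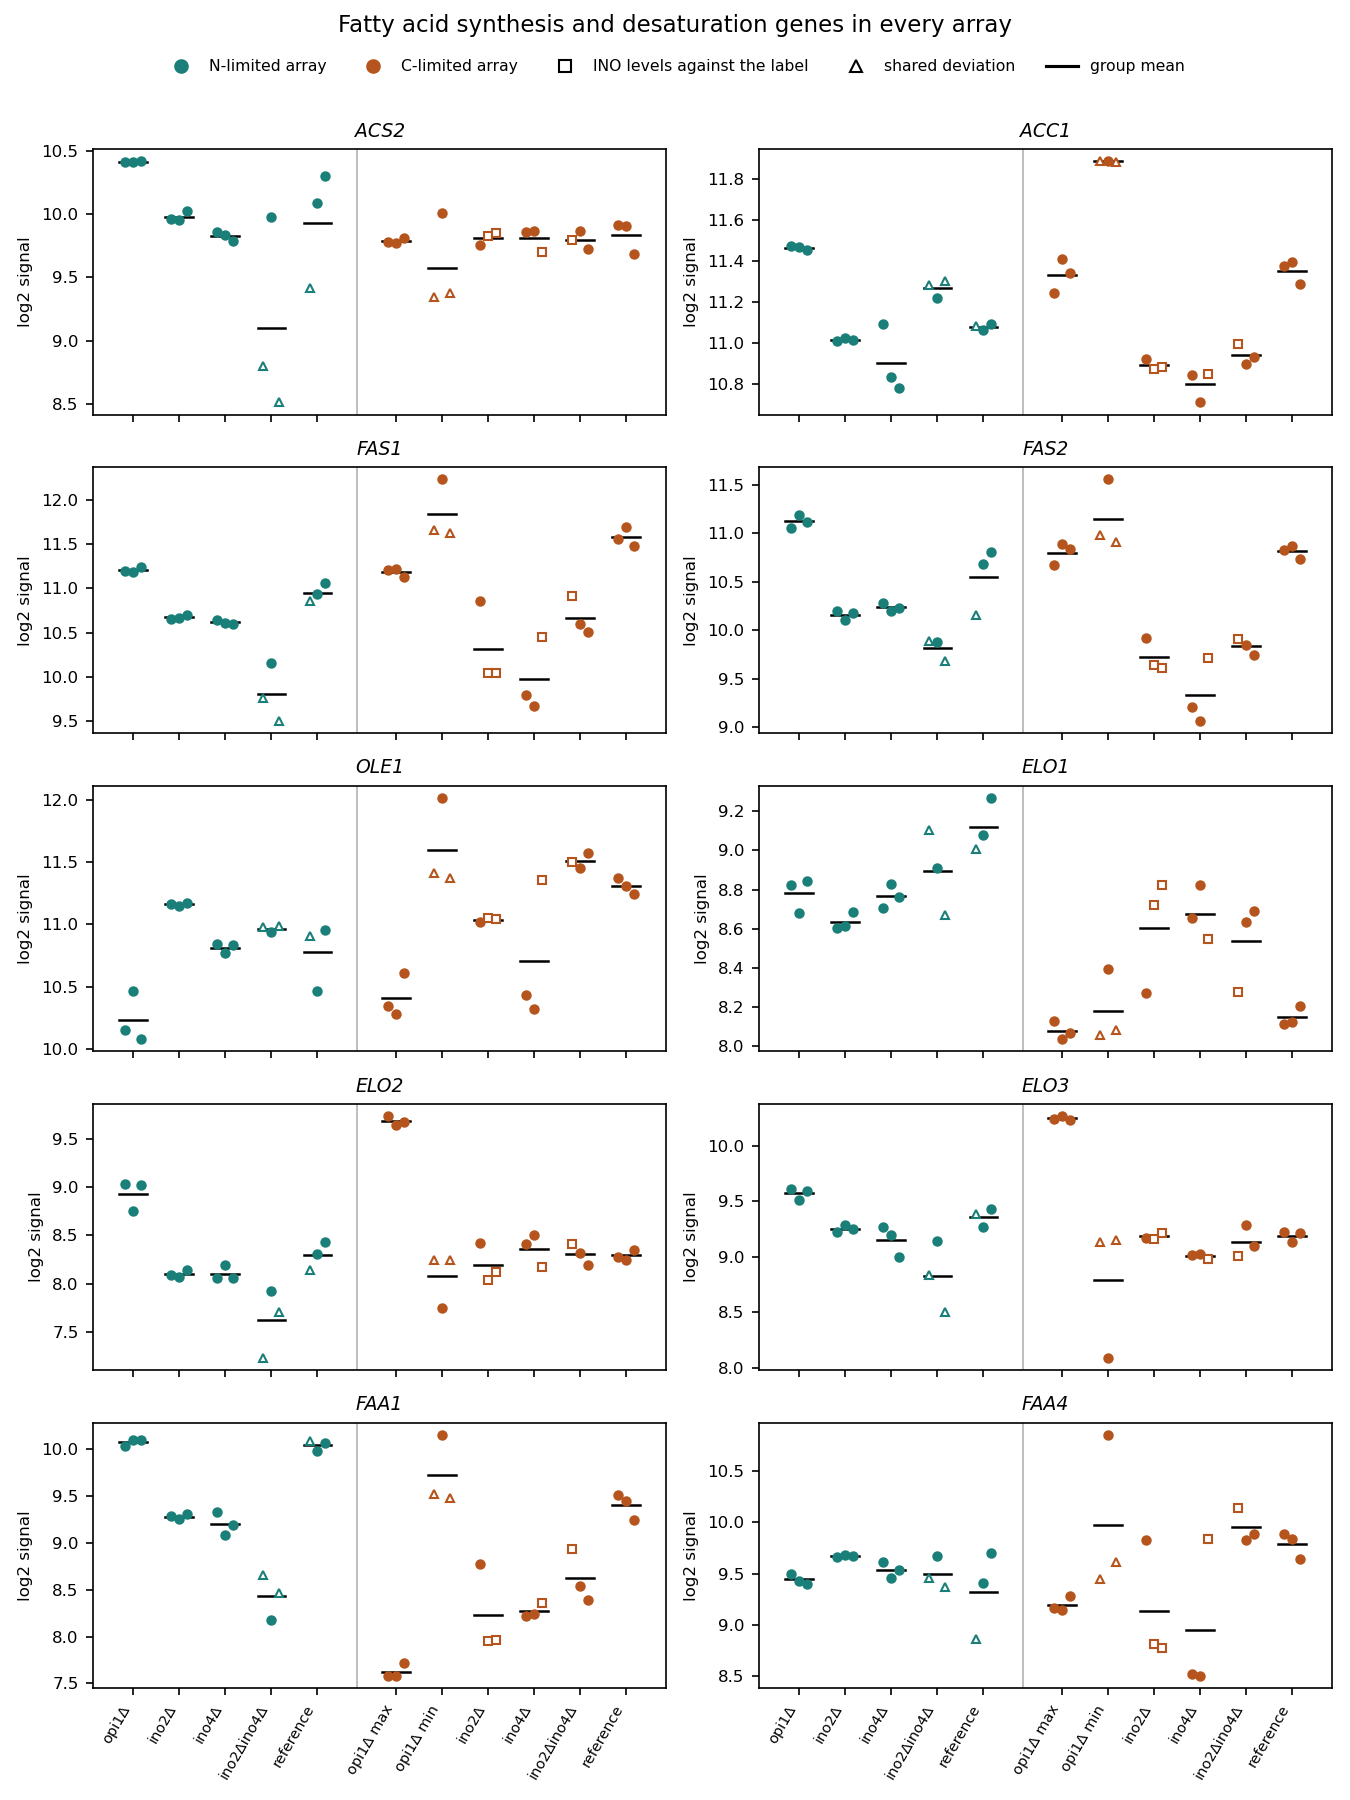
Each panel plots the log2 signal of 1 gene in all 33 arrays, N-limited groups on the left of the line and C-limited groups on the right (max and min are the CO2 phases of *opi1*Δ), with bars for group means, open squares for arrays with *INO* levels against the label and open triangles for arrays with the shared deviation. The *opi1*Δ maximum-CO2 arrays are the highest for *ELO2* and *ELO3* and the lowest for *FAA1* (7.58 to 7.72), and *ACC1* sits at 11.89 in all 3 minimum-CO2 arrays.

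The other enzymes that activate, import or bind fatty acids were counted beside *FAA1* and *FAA4*: *FAA2*, *FAA3*, *FAT1*, *PCS60* and *ACB1*. At maximum CO2 against the reference 1 of 5 rose and 2 fell, beside 17.5% and 13.7% of all genes. *FAA2*, a synthetase for medium chains in the peroxisome, fell by 2.41 ± 0.47 (adjusted p = 1.6e-04) and *FAT1*, a transporter and synthetase for very long chains, rose by 0.52 ± 0.13 (adjusted p = 0.0020), a call lost without reference replicate 1 or maximum-CO2 replicate 2 (0.48 and 0.49, adjusted p = 0.0131 and 0.0117). The genes of β-oxidation, which break fatty acids down in the peroxisome, fell in 9 of 11 cases there, and *FOX2*, the multifunctional enzyme of the middle steps, and *POX1*, the acyl-CoA oxidase of the first, had log2 fold changes of -3.57 ± 0.52 and -3.55 ± 0.58 (adjusted p = 5.2e-06 and 2.5e-05). The median over the 11 was -2.45, beside 0.08 over all genes. *ACS1*, the other acetyl-CoA synthetase, fell by 3.52 ± 0.45 at maximum CO2 (adjusted p = 7.5e-07), whereas *ACS2* gave -0.05 ± 0.23.

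The same lists moved in the N-limited reference. Against the C-limited reference 10 of 11 β-oxidation genes fell, beside 8.61% of all genes (median -2.46, beside 0.06 over all genes). *ACS1* fell by 4.20 ± 0.45 (adjusted p = 4.6e-08) and *FAA2* fell by 2.63 ± 0.46 (adjusted p = 8.2e-05). Of the 10 genes *ACC1* read 11.08, 11.06 and 11.09 in the N-limited reference, below the C-limited arrays, and fell by 0.27 ± 0.07 (adjusted p = 0.0023). That call was lost without C-limited replicate 1 or 2 (-0.26 and -0.25, adjusted p = 0.0126 and 0.0143) and with quantile normalization (adjusted p = 0.0191). *FAA1* rose by 0.64 ± 0.18 (adjusted p = 0.0063), a call lost without any 1 of the 6 arrays (0.56 to 0.70, adjusted p = 0.0114 to 0.0348). *FAS1*, with -0.63 ± 0.20, and *OLE1*, with -0.54 ± 0.19, lay below the C-limited arrays without passing (adjusted p = 0.0152 and 0.0261). So did all N-limited reference arrays for 20.1% of all genes, passing or not. The comparison of C-limited *opi1*Δ at maximum CO2 and that of the N-limited reference share the C-limited reference arrays. Mitochondrial fatty acid synthesis, a separate pathway with 7 listed genes, took no common direction in either: 1 rose and 1 fell in each.

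How far the synthase genes went along with phospholipid genes was read from 11 genes known as targets of Ino2-Ino4 through UAS_INO, among them *INO1*, *CHO2*, *OPI3* and *ITR1*. All 11 rose in C-limited *opi1*Δ at maximum CO2, beside 17.5% of all genes, with a median log2 fold change of 1.30. At minimum CO2 7 of 11 rose, beside 3.25% of all genes, with a median of 0.999. In the same comparisons the values for *FAS1*, *FAS2*, *ACC1* and *ACS2* were -0.39, -0.01, -0.02 and -0.05 at maximum CO2, none of which passed, and 0.26, 0.33, 0.53 and -0.26 at minimum CO2, of which *ACC1* passed. In N-limited *opi1*Δ 9 of the 11 rose (median 1.21), beside 1.87% of all genes, and *INO1* rose by 4.69 ± 0.18 (adjusted p = 2.7e-16). The values for *FAS1*, *FAS2*, *ACC1* and *ACS2* were 0.25, 0.57, 0.39 and 0.48 there (0.22 for *ACS2* without reference replicate 1).

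In the *INO* deletions under C-limitation 4 of the 11 fell in *ino2*Δ, 5 in *ino4*Δ and 4 in *ino2*Δ*ino4*Δ, and none rose. Of all genes 0.734%, 6.74% and 0.496% fell in these strains. There *CHO2*, the first methyltransferase on the way to phosphatidylcholine, fell too, with -1.24 ± 0.16 in *ino2*Δ, -1.40 ± 0.16 in *ino4*Δ and -1.02 ± 0.16 in the double deletion, beside the -0.91 to -1.61 of *FAS1* and *FAS2*. Under N-limitation 6 of 11 fell in each single deletion, where 0.606% (*ino2*Δ) and 0.551% (*ino4*Δ) of all genes changed in either direction. In the double deletion 9 fell, beside 8.09% of all genes. *CHO2* fell in N-limited *ino2*Δ and *ino4*Δ, with -1.34 ± 0.16 and -1.30 ± 0.16, while *FAS1*, at -0.28 and -0.33, did not pass in either.

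**Figure D4:**
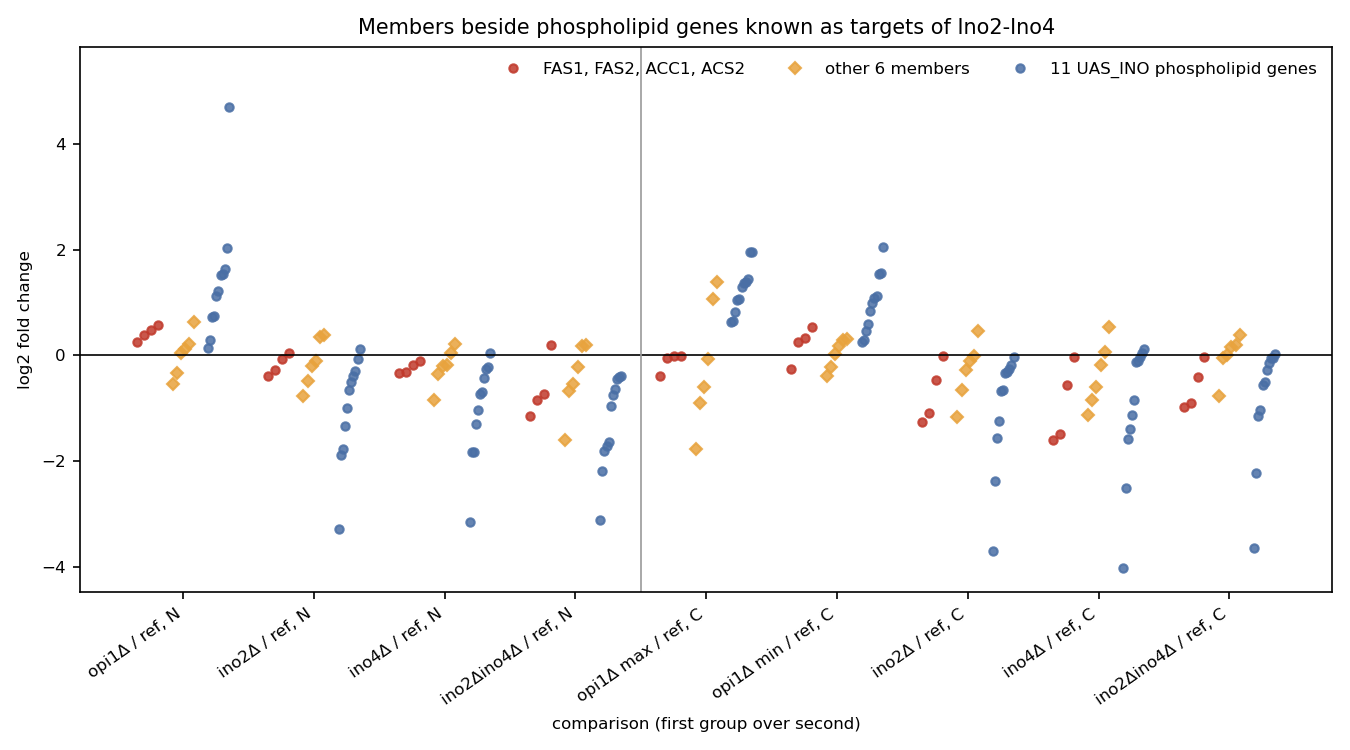
Points are log2 fold changes of single genes in the 9 comparisons of a mutant with the reference of its limitation (first group over second; N and C stand for the limitation, max and min for the CO2 phases), with *FAS1*, *FAS2*, *ACC1* and *ACS2* in red, the other 6 genes in orange diamonds and the 11 UAS_INO phospholipid genes in blue. All 11 blue points lie above 0 in each *opi1*Δ group, whereas the red points run from -0.39 to -0.01 at maximum CO2.

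Across the 11 group means the 2 synthase genes had a Pearson r of 0.91 with each other, and *ELO2* and *ELO3* had 0.93. *ACC1* had 0.82 with *FAS2* and 0.73 with *FAS1*, and *OLE1* had 0.73 with *FAA4*, while the lowest value was that of *ELO3* with *OLE1*, -0.65. *ACS2* stayed at or below 0.51 with every other member. Over all genes above background, the means of *FAS1* and *FAS2* were most like *CHO2* (0.92), *ITR1* (0.89), *INO1* (0.87), *OPI3* (0.86) and *INO4* (0.83). For *ACC1* these were *ECM9* (0.86), *MOG1* (0.85), *POP7* (0.84), *YGL007C-A* (0.84) and *INO1* (0.84), and for *OLE1* they were *PLB2* (0.91), *PBY1* (0.90), *ARA2* (0.87), *TIP1* (0.87) and *HAL9* (0.86). These coefficients describe 11 means that share strains, media and reference arrays, and no test goes with them. *INO4* is itself deleted in the *ino4*Δ and *ino2*Δ*ino4*Δ groups, so its likeness is partly set by the genotypes.

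Whether a deletion acted alike under both limitations was tested as its effect under N-limitation minus that under C-limitation, with the minimum-CO2 group for C-limited *opi1*Δ. In *ino4*Δ the log2 fold change was higher under N-limitation for 2 of the 10 genes and lower for 1, beside 1.25% and 2.18% of all genes. For *FAS1* and *FAS2* the higher value is a smaller fall, -0.33 and -0.32 under N-limitation against -1.61 and -1.48 under C-limitation. *ELO1* changed sign, with -0.35 against 0.53. The difference was 1.27 ± 0.28 for *FAS1* (adjusted p = 0.0059), 1.16 ± 0.22 for *FAS2* (adjusted p = 0.0027) and -0.88 ± 0.18 for *ELO1* (adjusted p = 0.0041). Without the 4 mismatched arrays *ACC1*, *OLE1* and *FAA4* passed in addition (0.40, 0.97 and 1.49). In *ino2*Δ *ELO1* passed, with -0.94 ± 0.18 (adjusted p = 0.0058), beside 0.128% of all genes with a higher and 0.385% with a lower log2 fold change under N-limitation. *FAS1* and *FAS2* gave 0.98 ± 0.28 and 0.70 ± 0.22 there without passing (adjusted p = 0.0662 and 0.0977). Without C-limited *ino2*Δ replicate 1, which leaves only the 2 arrays of that group whose *INO4* is below background against their label, *FAS1* gave 1.26 (adjusted p = 0.0019) and *ACC1* 0.41 (adjusted p = 0.0095). In the double deletion *ACC1* passed, with 0.60 ± 0.09 (adjusted p = 5.4e-05), beside 3.23% and 4.37% of all genes, while *FAS1* and *FAS2* gave -0.24 ± 0.28 and 0.24 ± 0.22. In *opi1*Δ *ELO2* passed, with 0.85 ± 0.20 (adjusted p = 0.0070), beside 2.88% and 1.85% of all genes. Without the 5 deviating arrays, which leaves 1 minimum-CO2 array and 2 arrays of the N-limited reference, *ELO3* gave 1.32 (adjusted p = 3.5e-07) and *OLE1* -1.18 (adjusted p = 0.0086).

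The extremes of *INO* activity were also set against each other directly. N-limited *opi1*Δ stood above *ino2*Δ*ino4*Δ in 6 of the 10 genes and below it in 1, beside 12.9% and 14.6% of all genes. The differences were 1.40 ± 0.20 for *FAS1*, 1.30 ± 0.16 for *FAS2*, 1.31 ± 0.14 for *ELO2* and 1.64 ± 0.18 for *FAA1* (adjusted p = 7.0e-08 to 4.1e-06). *ACS2* was higher by 1.32 ± 0.23 (adjusted p = 8.4e-05), or 0.44 over the 1 double deletion array without the shared deviation (adjusted p = 9.2e-04). *ELO3* was higher by 0.74 ± 0.17 (adjusted p = 0.0013), but its call was lost without double deletion replicate 3 (0.58, adjusted p = 0.0176) and its value was 0.43 without the 5 arrays. *OLE1* was the 1 gene that was lower, by -0.74 ± 0.19 (adjusted p = 0.0027), and lost the call without any 1 of *opi1*Δ replicates 1 and 3 or double deletion replicates 1 and 3 (-0.70, -0.66, -0.73 and -0.73, adjusted p = 0.0109 to 0.0176). Under C-limitation *opi1*Δ at minimum CO2 stood above *ino2*Δ*ino4*Δ in 4 of the 10 genes and below it in 0 (2.46% and 5.18% of all genes). These were *ACC1* with 0.95 ± 0.07, *FAS1* with 1.17 ± 0.20, *FAS2* with 1.31 ± 0.16 and *FAA1* with 1.09 ± 0.18 (adjusted p = 1.1e-10 to 2.6e-04).

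Against the mean of both single deletions, the N-limited double deletion was higher in 1 gene and lower in 4, beside 17% and 15.6% of all genes. *FAS1* differed by -0.84 ± 0.17, *FAA1* by -0.81 ± 0.15, *ACS2* by -0.81 ± 0.20 and *ELO2* by -0.48 ± 0.12, and *ACC1* by 0.31 ± 0.06 (adjusted p = 1.0e-04 to 0.0025). These calls lean on the arrays with the shared deviation: without the 5 of them, with 1 array of the double deletion left, the values were -1.06 for *FAA1* (adjusted p = 4.9e-04), -0.49 for *FAS1*, -0.18 for *ELO2*, 0.26 for *ACC1* and 0.071 for *ACS2*, of which that of *FAA1* passed. Without replicate 1 of the double deletion *ACS2* and *ELO2* lost their calls (-0.66 and -0.29), as did *ACS2* without replicate 3 (-0.51), while *ACS2* was -1.25 without replicate 2. Under C-limitation limma called 0 of the 10 genes between double and single deletions, where 0.0734% of all genes passed, with 5 of the 10 at an unadjusted p below 0.05. The methods' t-test, made for 2 groups, was not run there. Without *ino4*Δ replicate 3, an array against its label, *FAS1* (0.65), *OLE1* (0.80) and *FAA4* (1.13) were higher in the double deletion, and *FAS1* gave 0.66 and passed without *ino2*Δ replicate 1, where the *ino2*Δ arrays left are the 2 against their label.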

How the data were processed

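Total RNA of chemostat samples was hybridised to 33 Affymetrix arrays. According to the submitters' processing notes the authors normalised them with PLIER (version not given in the sources used here), and 1 log2 value per probe set was deposited. The log base is not stated, and log2 was taken from the range of the values, 4.70 to 13.48. The labels and the methods name different kits for RNA extraction. Deposited values were used without further scaling; array medians ran from 7.14 to 7.44.

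Probe sets (10928) were matched to the R64 gene table on gene identifier, or on symbol where that table lacked the identifier. This named 1 gene for 5498 of them, and 12 outdated symbols were updated. The 3683 that the probe table does not list were left out. The 1746 for genes of other organisms gave the background level (5.39 to 5.53 per array, 95th percentile). For 47 genes the probe set with the highest mean was used. Of the 5449 genes, 288 had a mean below background and stayed in the tests. The precision of each value is limited by 3 arrays per group.

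All arrays entered a single limma model with 11 group means (version 3.58.1, R 4.3.3, lmFit and eBayes, 22 residual and 2.95 prior degrees of freedom). P-values were adjusted by Benjamini-Hochberg over the 5449 genes of each of 19 comparisons, with the methods' threshold of 0.01. The fit was also run on simulated data with independent normal errors of the same spread in every group. These held no mislabelled array and no shared deviation, so the run cannot show how the fit behaves with such arrays. The members were chosen by function, and members and gene lists were chosen with earlier results of these data known, as were the 4 and the 5 arrays left out as alternatives. All 10 members are named in every comparison, and of each list at most 2 genes, those that passed with the greatest change, together with genes whose values are set beside a member. Likeness is the Pearson r over 11 group means among genes above background. Alternatives were median centring, quantile normalization, leaving out genes below background, only the groups compared in the model, the methods' t-test, eBayes with trend and robust settings, the mean of a gene's probe sets, the replicate number as a block and leaving out arrays. Tables were handled in Python 3.11.15.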

Additional observations from a re-analysis of the deposited data

Results flagged for a closer look

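For 6 effects of a deletion the test of N-limited minus C-limited effect passed in limma, at an adjusted p below 0.01 over all genes. In *opi1*Δ, with the minimum-CO2 group under C-limitation, *ELO2* differed by 0.85 ± 0.20 (adjusted p = 0.0070), and this was lost without any 1 of 6 of the 12 arrays (adjusted p = 0.0138 to 0.0273). In *ino2*Δ *ELO1* differed by -0.94 ± 0.18 (adjusted p = 0.0058). That call was lost without any 1 of 10 of the 12 arrays (adjusted p = 0.0107 to 0.0347) and without the 4 arrays whose *INO* levels go against their labels (-0.61, adjusted p = 0.1738). In *ino4*Δ *FAS1* differed by 1.27 ± 0.28 (adjusted p = 0.0059), *FAS2* by 1.16 ± 0.22 (adjusted p = 0.0027) and *ELO1* by -0.88 ± 0.18 (adjusted p = 0.0041). Without any 1 of 10 of the 12 arrays *FAS1* missed the threshold (adjusted p = 0.0108 to 0.0278), as *ELO1* did without any 1 of 6 (adjusted p = 0.0105 to 0.0169) and *FAS2* without C-limited *ino4*Δ replicate 1 or 2 (adjusted p = 0.0135 and 0.0139). Without the 4 arrays these 3 were 1.51, 1.36 and -0.94 and passed. In *ino2*Δ*ino4*Δ *ACC1* differed by 0.60 ± 0.09 (adjusted p = 5.4e-05) and passed on leaving out each array in turn.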

How the results depend on the processing

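Counts below are members called, out of 10. The share of all genes called may also differ between settings and is not given beside them. A changed count therefore shows how the calls depend on the processing and is not a result about these genes. With only the groups compared in the model they were 0 in C-limited *opi1*Δ at minimum CO2, 1 in C-limited *ino2*Δ, 2 in *ino4*Δ, 0 in N-limited *opi1*Δ, 1 in N-limited *ino2*Δ (*FAA1*), 1 in N-limited *ino2*Δ*ino4*Δ, 0, 0 and 1 for the N minus C effects of *opi1*Δ, *ino2*Δ and *ino4*Δ, and 1 for minimum-CO2 *opi1*Δ over *ino2*Δ*ino4*Δ; fewer arrays enter such a model. The methods' t-test gave 0 at minimum CO2, 3 between the phases, 0 in each C-limited *INO* deletion, 1 in N-limited *opi1*Δ, 0 in N-limited *ino2*Δ*ino4*Δ, 1 in the N-limited reference, and 0 and 2 for *opi1*Δ over *ino2*Δ*ino4*Δ under C- and N-limitation. Quantile normalization gave 1 in C-limited *ino2*Δ*ino4*Δ and 0 for the *opi1*Δ N minus C effect, and median centring 0 for that of *ino2*Δ. Without the 4 arrays against their labels counts were 0 in *ino2*Δ (1 array left), 5 in *ino2*Δ*ino4*Δ, 0, 6 and 2 for the N minus C effects of *ino2*Δ, *ino4*Δ and the double deletion, and 1 for the C-limited double against single deletions. Without the 5 arrays with a shared deviation they were 5 at minimum CO2 (1 array left), 1 in N-limited *ino4*Δ (*ACS2*), 2 in *ino2*Δ*ino4*Δ (1 array left), 3 and 2 for the N minus C effects of *opi1*Δ and *ino2*Δ*ino4*Δ, and 1 for the N-limited double against single deletions, where *ACS2* changed sign, with 0.071 (adjusted p = 0.5719) in place of -0.81. The cause was not tested.

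Leaving out 1 array gave 1 at minimum CO2, 4 at maximum CO2, 5 to 6 between the phases, 4 to 5 in *ino2*Δ, 4 to 7 in *ino4*Δ and 2 to 4 in *ino2*Δ*ino4*Δ under C-limitation, and 1 to 2 in *opi1*Δ, 0 in each single deletion and 3 to 6 in *ino2*Δ*ino4*Δ under N-limitation. It gave 1 to 2 in the N-limited reference, against 3 with all arrays, 0 to 1, 0 to 3, 0 to 6 and 1 to 3 for the N minus C effects of *opi1*Δ, *ino2*Δ, *ino4*Δ and the double deletion, 0 to 3 and 3 to 6 for double against single deletions under C- and N-limitation, and 4 to 5 and 5 to 7 for *opi1*Δ over *ino2*Δ*ino4*Δ. No scaling alternative turned the sign of a called change. Of 54 called changes of single genes all kept their call with trend and robust settings and without genes below background. The mean of probe sets could not test them, because each of these genes has 1 probe set and its values stay the same. With only the groups compared in the model 28 of the 54 lost their call, with quantile normalization 4 and with median centring 2. The methods' t-test, run only for comparisons of 2 groups, lost 32 calls and kept 11. Same-numbered arrays deviated together (r above 0.1) in all 3 pairs in no comparison of 2 groups. Among groups that enter larger contrasts they did in C-limited *ino2*Δ*ino4*Δ and *ino2*Δ (r of 0.70, 0.61 and 0.55) and in N-limited *ino2*Δ and the C-limited reference (0.17, 0.19 and 0.24). In C-limited *ino2*Δ and *ino2*Δ*ino4*Δ replicate 1 was the array with *INO4* above background (6.53 and 6.64). Over all genes these 2 arrays were each most like the other (r of 0.9969). C-limited *ino4*Δ replicate 3 was most like *ino2*Δ*ino4*Δ replicate 3 (0.9972). With the replicate number as a block all 54 calls remained and the counts were those of the report. With 3 arrays per group, small differences such as those of *ACS2* between C-limited *INO* deletions and reference cannot be told from 0.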

Other observations

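Mitochondrial fatty acid synthesis, whose acyl chains serve as the precursor of lipoic acid, was read from 7 genes. *ETR1*, its enoyl reductase, read 7.75, 7.82 and 7.75 in C-limited *opi1*Δ at maximum CO2 and 9.90, 9.99 and 9.61 at minimum CO2, against 9.81, 9.70 and 9.70 in the reference. It fell at maximum CO2 (-1.96 ± 0.25, limma, adjusted p = 8.5e-07), in C-limited *ino4*Δ (-1.24 ± 0.25, adjusted p = 0.0012, lost without replicate 1 or 2 with 0.0181 each) and in the N-limited against the C-limited reference (-1.32 ± 0.25, adjusted p = 2.1e-04). *HFA1*, the mitochondrial counterpart of *ACC1*, rose in the N-limited reference by 0.82 ± 0.18 (adjusted p = 9.4e-04), where *ACC1* fell by 0.27. *ACP1*, the acyl carrier protein, rose by 0.59 ± 0.13 in N-limited *ino2*Δ*ino4*Δ (adjusted p = 9.2e-04), at 10.29, 10.19 and 10.23, against 9.86, 9.62 and 9.47 in the reference, a call lost without reference replicate 3 (0.50, adjusted p = 0.0113).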
